A study of Saccharomyces cerevisiae with 12 samples.

Results

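The aryl-alcohol dehydrogenase family of budding yeast was read at 4 genes, AAD4 (YDL243C), AAD10 (YJR155W), AAD14 (YNL331C) and AAD15 (YOL165C). They were chosen as the spots whose gene symbol in the platform's probe annotation is exactly one of these names, a rule that uses no measured value, although the family was picked with earlier results of these data known. Each gene had 1 spot, so the family makes up 4 of the 6912 spots and 4 of the 3127 named genes tested. None of the 4 passed the test in any comparison. AAD14 and AAD15 read higher in the strain labelled as lacking Aft1 and Aft2 than in its parent on both rich-medium slides, by about 1.3-fold, and their spots gave nearly the same ratio in all 12 deposited columns.

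The AAD genes encode proteins that resemble the aryl-alcohol dehydrogenase of the white-rot fungus Phanerochaete chrysosporium, an aldo-keto reductase that interconverts aromatic aldehydes and alcohols during lignin breakdown. In yeast they lie near chromosome ends and are close copies of each other, and their substrates in the cell are mostly putative. AAD4 is known as a gene that the oxidant-responsive factor Yap1 can induce. AAD14 encodes a full-length member of the family, while AAD15 is a shorter open reading frame. Aft1 and Aft2 are transcription factors that switch on iron uptake genes when iron is scarce, and AAD genes are not among their textbook targets.

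The 6 slides form 3 comparisons of 2 slides, and on every slide RNA of a mutant strain was hybridised against RNA of a wild-type strain. The first set Y18daft2, a strain labelled aft1d aft2d, against the wild-type strain CM3260, both from YPD rich medium at an optical density of 0.5. The next compared the same strains after 2 further hours in 200 mM hydroxyurea, an inhibitor of ribonucleotide reductase that slows DNA replication. The last compared an aft1d derivative of BY4741 with BY4741 itself, also after 2 hours in 200 mM hydroxyurea. All strains shared the YPD culture to that density, and hydroxyurea was absent only from the first comparison. No aft1 slide without hydroxyurea is among the data analysed here. The labels do not say whether the slides of a comparison came from separate cultures, so each p measures only the spread between slides, which may be technical. Each mutant is represented by 1 named strain. The channels were swapped within each comparison: mutant RNA was in channel 2 on replicate 1, and in channel 1 on replicate 2.

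Each slide has a weak and a strong scan, judged from the French words in the titles. Their deposited log ratios are read as log2, a base that the sources used here do not give. Unless called deposited, a value is the log2 of mutant divided by wild type, after each column was centred on its median and its channel trend removed, with both scans of a slide averaged. The trend is a smooth dependence of a column on the ratios that the same spots showed, in channel orientation, on the slides of the other comparisons. The direction is likely rather than settled. It rests on AFT1, which read -2.78 and -3.31 on the aft1 slides when the deposited value is taken as channel 1 over channel 2. AFT1 read -0.30 and 0.25 on the rich-medium slides of Y18daft2 and -0.29 and -0.06 on its hydroxyurea slides, and AFT2 read between -0.26 and 0.11 there. The low AFT1 reading of the aft1 slides was thus not seen in Y18daft2, and neither spot bears out the label of that strain. The reason was not tested. The slides of a comparison correlated, across the 3127 genes and after normalisation, at 0.208 in rich medium, -0.265 in the Y18daft2 pair in hydroxyurea and 0.382 in the aft1 pair.

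In rich medium 3 of the 4 AAD genes lay above 0 on both slides, as did 27.7% of all genes. None of the 4 passed an adjusted p of 0.05, and 0.256% of all genes passed, 0.064% in the higher direction (limma with Benjamini-Hochberg over 3127 genes). None reached an unadjusted p under 0.05 either, which 5.08% of genes did in limma. The family's median was 0.37, beside 0.001 for all genes. A ratio of this kind cannot tell a change in every cell from a change in the share of cells that hold the transcript.

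AAD14 read 0.34 on replicate 1 and 0.38 on replicate 2, at percentiles 94.5 and 90.8 among all genes on those slides. Its weak and strong scans gave 0.33 and 0.35 on replicate 1, and 0.29 and 0.47 on replicate 2. All 4 columns thus placed it above the parent. The fitted value was 0.36 (SE 0.188, n = 2 slides), which is 1.28-fold, with a 95% interval from -0.07 to 0.79 and an adjusted p of 1 (limma, unadjusted p = 0.0903).

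AAD15, the short copy, read 0.29 on replicate 1 and 0.47 on replicate 2, at percentiles 92.1 and 94.6. The weak and strong scans gave 0.28 and 0.30 on replicate 1, and 0.32 and 0.62 on replicate 2. Again all 4 columns lay above 0. The fitted value was 0.38 (SE 0.184, n = 2 slides), or 1.30-fold, with an interval from -0.04 to 0.80 and an adjusted p of 1 (limma, unadjusted p = 0.0706). With columns only centred and the trend left in, AAD14 read 0.22 and 0.59 on the slides, and AAD15 read 0.21 and 0.64.

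AAD10 read 0.16 on replicate 1 and 0.60 on replicate 2, and its fitted value was 0.38 (SE 0.199, n = 2 slides; 95% interval -0.08 to 0.83; adjusted p = 1, limma). This value rested on 1 strong scan. On replicate 2 the strong scan gave 1.03 and the weak scan 0.17, while both scans of replicate 1 gave between 0.15 and 0.16. From weak scans alone the fitted value was 0.16. Without replicate 2 it was -0.003, and without replicate 1 it was 0.78. These leave-out fits shift the lone rich-medium slide by a channel term from the hydroxyurea slides. They therefore do not show that slide's own reading, 0.16 on replicate 1 and 0.60 on replicate 2. The sign of AAD10 on replicate 2 also depended on the removal of the channel trend. With columns only centred, AAD10 read 0.44 on replicate 1 and -0.10 on replicate 2. The AAD10 spot sits near an end of that trend, at percentile 3.86 of all spots in this comparison, where AAD4, AAD14 and AAD15 sit at 46.9, 63.3 and 60.2.

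AAD4, a gene known to be inducible by Yap1, differed in sign between the slides, as 48.5% of all genes did. Whether Yap1 also acts on the other members was not examined here. On the slides AAD4 was below 0 once and above 0 once. AAD4 read -0.29 on replicate 1 and 0.08 on replicate 2. Its fitted value was -0.10 (SE 0.204, n = 2 slides; 95% interval -0.57 to 0.36; adjusted p = 1, limma). AAD4 was the only member with a fitted value below 0 in rich medium, and its interval overlapped those of the other three.

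**Figure D1:**
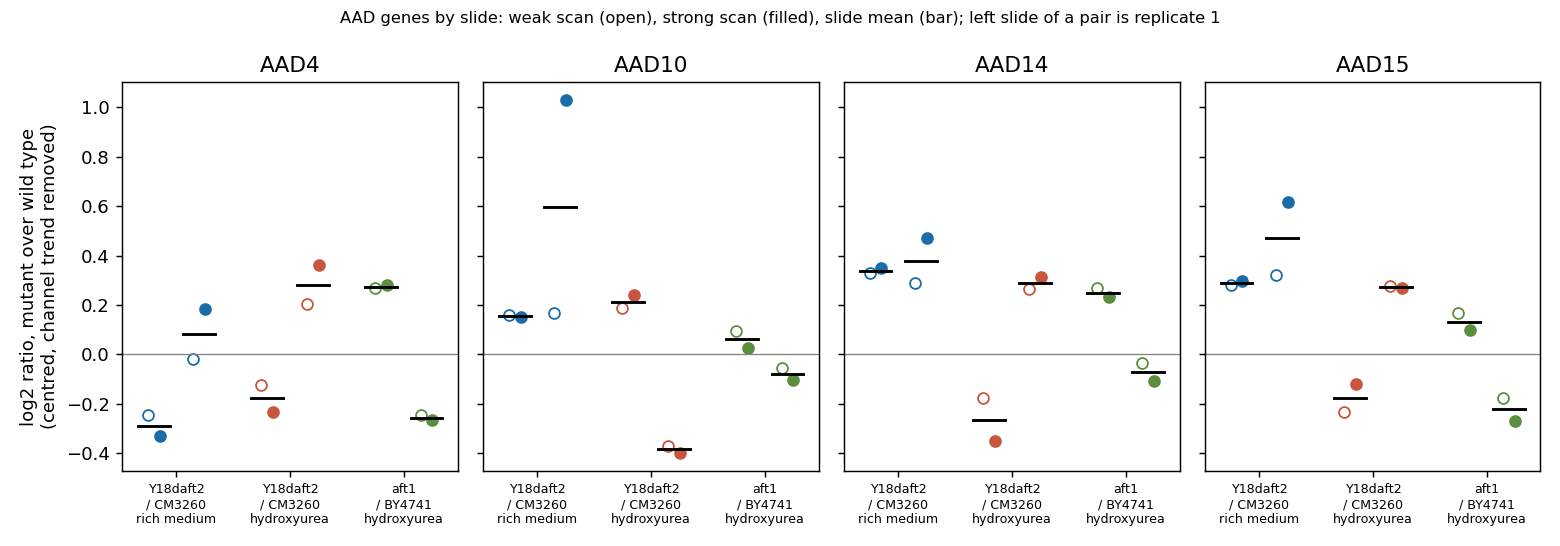
Log2 ratio of mutant over wild type (vertical axis) for each AAD gene on the 6 slides, grouped by comparison, with the weak scan as an open point, the strong scan as a filled point and the slide mean as a bar. In rich medium AAD14 and AAD15 lie above 0 in all 4 columns, AAD10 has 1 strong scan at 1.03, and in hydroxyurea the slides of each pair lie on opposite sides of 0 for every gene.

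In hydroxyurea no AAD gene of the Y18daft2 pair stood apart from its parent, and every member changed sign between the slides. This was so for 4 of 4 members and for 65.4% of all genes. None of the 4 passed an adjusted p of 0.05, which 0.0959% of genes did, or an unadjusted p of 0.05, which 1.57% did (limma). AAD14 read -0.27 on replicate 1 and 0.29 on replicate 2, with a fitted value of 0.01 (SE 0.188, n = 2 slides; 95% interval -0.42 to 0.44). AAD15 followed it at -0.18 and 0.27, with a fitted value of 0.05 (95% interval -0.37 to 0.47). AAD4 read -0.18 and 0.28, fitted at 0.05 (95% interval -0.41 to 0.52). These 3 members were low with the mutant in channel 2 and high with it in channel 1. AAD10 was the reverse, at 0.21 on replicate 1 and -0.38 on replicate 2, with a fitted value of -0.09 (95% interval -0.54 to 0.37). The adjusted p was 1 for each of the 4 in limma. The intervals span folds from 0.687 to 1.43 of the parent over the 4 genes, without adjustment for the number of genes tested.

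In the aft1 pair in hydroxyurea the 4 members again had opposite signs on the slides, as did 42% of all genes, and none passed an adjusted p of 0.05 (limma, 0.192% of genes) or an unadjusted p of 0.05 (4.19% of genes). AAD4 read 0.27 and -0.26 on replicates 1 and 2, with a fitted value of 0.01 (SE 0.204, n = 2 slides). Its slides differed by 0.53, more than those of 92.4% of genes in this comparison. AAD14 read 0.25 and -0.07, fitted at 0.09 (95% interval -0.34 to 0.52). AAD15 read 0.13 and -0.22, fitted at -0.04 (95% interval -0.46 to 0.37). The opposite signs of AAD14 and AAD15 depended on the removal of the channel trend. With columns only centred, AAD14 read 0.11 and 0 on the slides, and AAD15 read -0.005 and -0.15. AAD10 read 0.06 and -0.08, and was fitted at -0.01 (95% interval -0.46 to 0.45). Its nearness to 0 depended on the removal of the trend, since with columns only centred AAD10 read 0.48 and -0.275. As deposited, the median of all genes in this comparison was -0.23. In channel orientation the strong scan of replicate 1 had a column median of 0.85, against -0.13, -0.12 and -0.04 in the other columns. Values here are relative to these column medians.

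**Figure D2:**
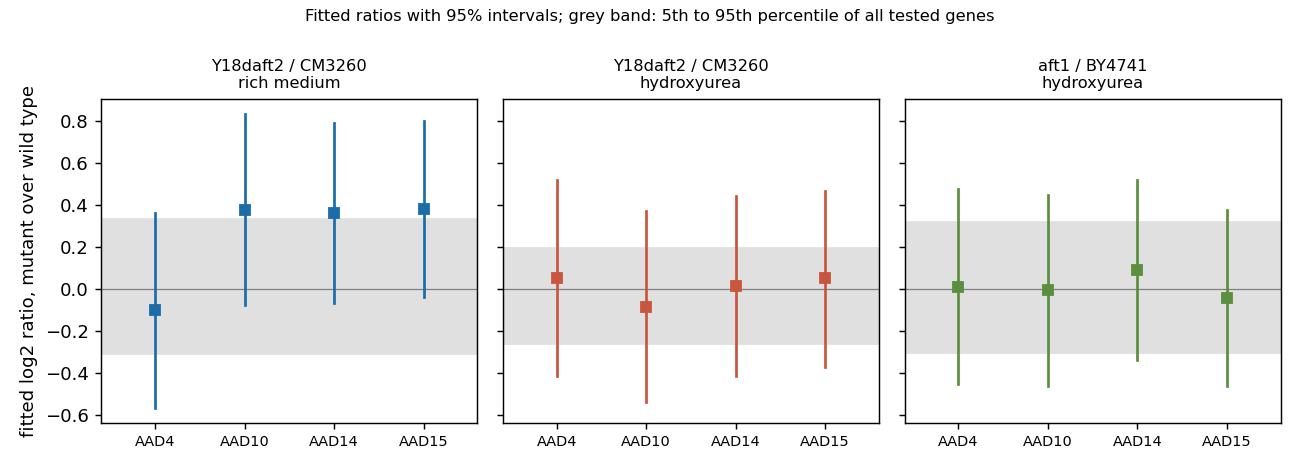
Fitted log2 ratio of mutant over wild type with its 95% interval for each AAD gene in the 3 comparisons, each from 2 slides. The grey band runs from the 5th to the 95th percentile of the fitted values of all 3127 genes. AAD10, AAD14 and AAD15 lie just above the band in rich medium, all other values lie inside it, and every interval includes 0.

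AAD14 and AAD15 lay above 0 on both slides in rich medium and on 1 of 2 slides in hydroxyurea, and the difference between the media did not pass. Hydroxyurea minus rich medium in the Y18daft2 pair was -0.35 for AAD14 (SE 0.266; 95% interval -0.95 to 0.26) and -0.33 for AAD15 (SE 0.260; 95% interval -0.92 to 0.26). It was -0.46 for AAD10 (SE 0.282; 95% interval -1.11 to 0.18), the largest of the 4, and 0.16 for AAD4 (95% interval -0.50 to 0.81). Each had an adjusted p of 1 in limma, and 0 of 3127 genes passed this contrast, with 3.49% of genes at an unadjusted p under 0.05 in limma. Between the Y18daft2 pair and the aft1 pair in hydroxyurea the members differed by -0.08 for AAD10, -0.08 for AAD14, 0.09 for AAD15 and 0.04 for AAD4, with an adjusted p of 0.999 for each (limma). None of the 4 passed this contrast at an adjusted p of 0.05, which 0.032% of genes did, or at an unadjusted p of 0.05, which 2.43% did (limma). The strain background, the parent and the alleles all differ between those pairs, and their parts cannot be told apart.

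AAD14 and AAD15 gave nearly equal ratios in every column, before any processing here. As deposited and in channel orientation, the AAD14 spot read -0.33 and -0.51 in the strong and weak scans of rich-medium replicate 1, where AAD15 read -0.32 and -0.49. On replicate 2 AAD14 read 0.65 and 0.14, and AAD15 read 0.73 and 0.15. Over the 12 columns their values differed by at most 0.22 and by 0.07 in the median. The highest value of both came from the strong scan of aft1 replicate 1, at 0.79 and 0.92, where the median of all spots was 0.85.

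The Pearson correlation of AAD14 with AAD15 was 0.968 over the 12 deposited columns, which share slides, scans and the channel trend. The median correlation of AAD14 with the 3123 genes outside the family was 0.522. Of these genes 4 correlated more closely with AAD14 than AAD15 did, namely LST4, TAG1, TAH11 and VBA2, which are named here because of their values. VBA2 alone came closer to AAD14 than AAD15 by the largest gap over the columns. Over the 6 turned and normalised slides the pair correlated at 0.929, and 23 genes correlated more closely with AAD14. AAD10 correlated with AAD14 at 0.435 over the deposited columns and at 0.106 over the slides, and AAD4 did so at 0.638 and 0.477. Close paralogs can share signal on a spotted array, and the probe sequences were not used here, so the values of AAD14 and AAD15 may not be independent readings of 2 transcripts. Their agreement was not tested for this.

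**Figure D3:**
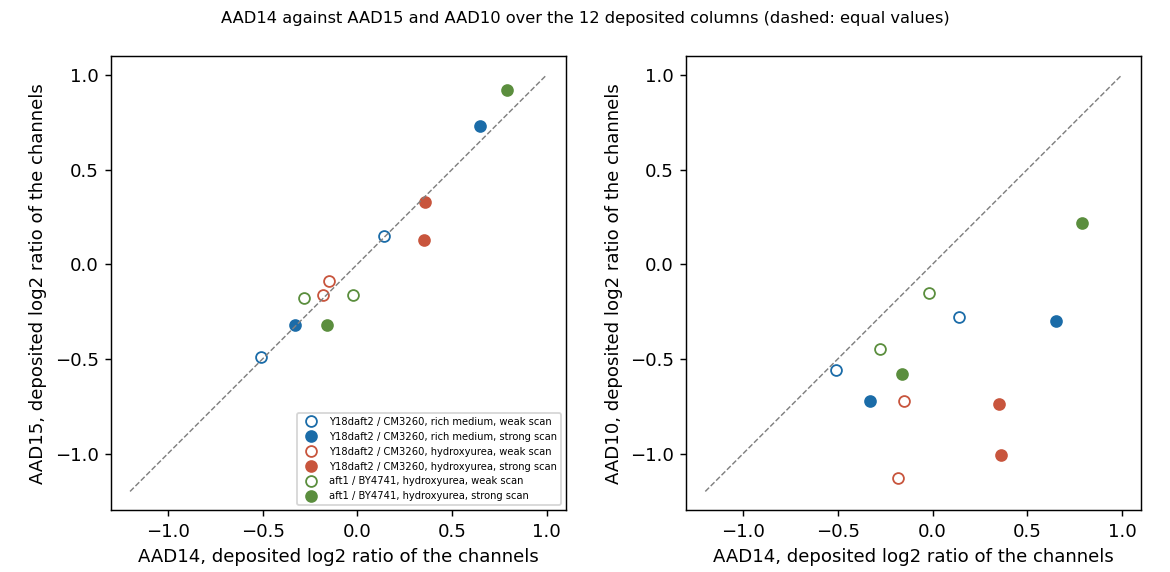
Deposited log2 ratio of the channels for AAD14 (horizontal axis) against AAD15 (left) and AAD10 (right) in the 12 columns, coloured by comparison, with weak scans open and strong scans filled. AAD15 follows the dashed line of equal values within 0.22, while AAD10 lies below AAD14 in every column, by up to 1.37.

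The genes that flank the AAD genes were read next, as the nearest 2 on each side in the order of the RefSeq annotation of assembly R64. This set was chosen after the members' values were seen. Of 15 flanking genes, 10 were measured. In rich medium 9 of the 10 lay above 0 on both slides, against 27.7% of all genes, with a median of 0.18, and none passed (limma, 0.256% of genes). Beside AAD10, THI11 read 0.41 and 0.27 and HXT16 read 0.37 and 0.33 on the slides. THI11 belongs to a family of close copies that make the pyrimidine part of thiamine, as do THI12 and THI13. HXT16 belongs to the hexose transporters, as does the flanking gene HXT15. Close copies can share signal on a spotted array, so the 10 genes may not be 10 independent readings, which was not tested. PGU1, an endopolygalacturonase on the other side of AAD10, read 0.20 and 0.39. Beside AAD4, THI13 read 0.40 and 0.01, and beside AAD15 the sulfatase gene BDS1 read 0.22 and 0.25. THI12, next to AAD14, read only 0.06 and 0.04. In hydroxyurea 0 of the 10 lay above 0 on both slides in the Y18daft2 pair, against 16.5% of genes, and 3 of 10 did in the aft1 pair, against 27.1%. HXT16 and THI11 were among these 3, with fitted values of 0.32 and 0.29 in the aft1 pair, where AAD10 between them and PGU1 read -0.01.

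Of 9 other aldo-keto reductases listed, 4 were measured, and none passed in any comparison, nor reached an unadjusted p under 0.05 (limma). These were GCY1, a glycerol dehydrogenase, ARA1, a D-arabinose dehydrogenase, and the less studied YJR096W and YDL124W. Their fitted values ran from -0.20 for YDL124W to 0.19 for YJR096W in rich medium, with a median of 0.10. They ran from -0.22 for YDL124W to 0.22 for ARA1 in the Y18daft2 pair in hydroxyurea, and from -0.18 for YJR096W to 0.10 for YDL124W in the aft1 pair. AAD3, AAD6 and AAD16, the other named members of the AAD family, were not analysed here, since the probe annotation used lists no spot under these names.

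Genes of the fusel alcohol pathway, in which amino acids are turned through aldehydes into alcohols and their acetate esters, were measured for 13 of 19. None passed in any comparison, and 1, 0 and 2 of the 13 reached an unadjusted p under 0.05 in rich medium, the Y18daft2 pair in hydroxyurea and the aft1 pair, where 5.08%, 1.57% and 4.19% of all genes did (limma). In rich medium their median was 0.10 and the highest was ATF1, an alcohol acetyltransferase, at 0.63 (adjusted p = 0.445, limma), while ADH5 was lowest at -0.28. In the Y18daft2 pair in hydroxyurea the median was -0.01, from -0.60 for SFA1, which oxidises formaldehyde adducts and long-chain alcohols, to 0.34 for the decarboxylase PDC6. In the aft1 pair 12 of 13 lay above 0 against 47.8% of all genes, with a median of 0.25, from -0.18 for SFA1 to 0.67 for ATF2, the other alcohol acetyltransferase (adjusted p = 0.559, limma).

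Targets of Yap1, the factor through which AAD4 can respond to oxidants, were measured for 11 of 17. In rich medium 1 of the 11 was lower, as were 0.192% of all genes, and 0 were higher. It was the thioredoxin peroxidase AHP1 at -1.12 (adjusted p = 0.0478, limma, n = 2 slides). That call was lost when any 1 of the 6 slides was left out, with values from -1.95 to -1.09. Over the alternatives that fitted AHP1, its call was kept under 5 of 17. The highest of the 11 was the multidrug transporter ATR1 at 0.72 (adjusted p = 0.629, limma). In the Y18daft2 pair in hydroxyurea none passed and 0 reached an unadjusted p under 0.05 (limma), with values from -0.24 for ATR1 to 0.08 for ECM4. In the aft1 pair none passed and 4 of the 11 reached an unadjusted p under 0.05, which 4.19% of all genes did (limma), with a median of -0.38, from -0.93 for the sulfiredoxin SRX1 (adjusted p = 0.597, limma) to 0.78 for ECM4, a glutathione transferase. AAD4 read 0.01 in that comparison.

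The genes whose pattern over the 6 slides was most like the mean of the 4 AAD genes were PTK2, TAH11 and RTG1, with Pearson r of 0.998, 0.987 and 0.985 (n = 6 slides, 3 genes taken from 3123). The family mean read 0.12 and 0.38 in rich medium, -0.10 and 0.12 in the Y18daft2 pair in hydroxyurea, and 0.18 and -0.16 in the aft1 pair. TAH11 read 0.24 and 0.49, -0.07 and 0.24, and 0.27 and -0.03 in the same order. PTK2 followed the same order at a lower level, from -0.35 to 0.18. With 6 points and this many genes, high values of r are easily found, and they are given only as a description.

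**Figure D4:**
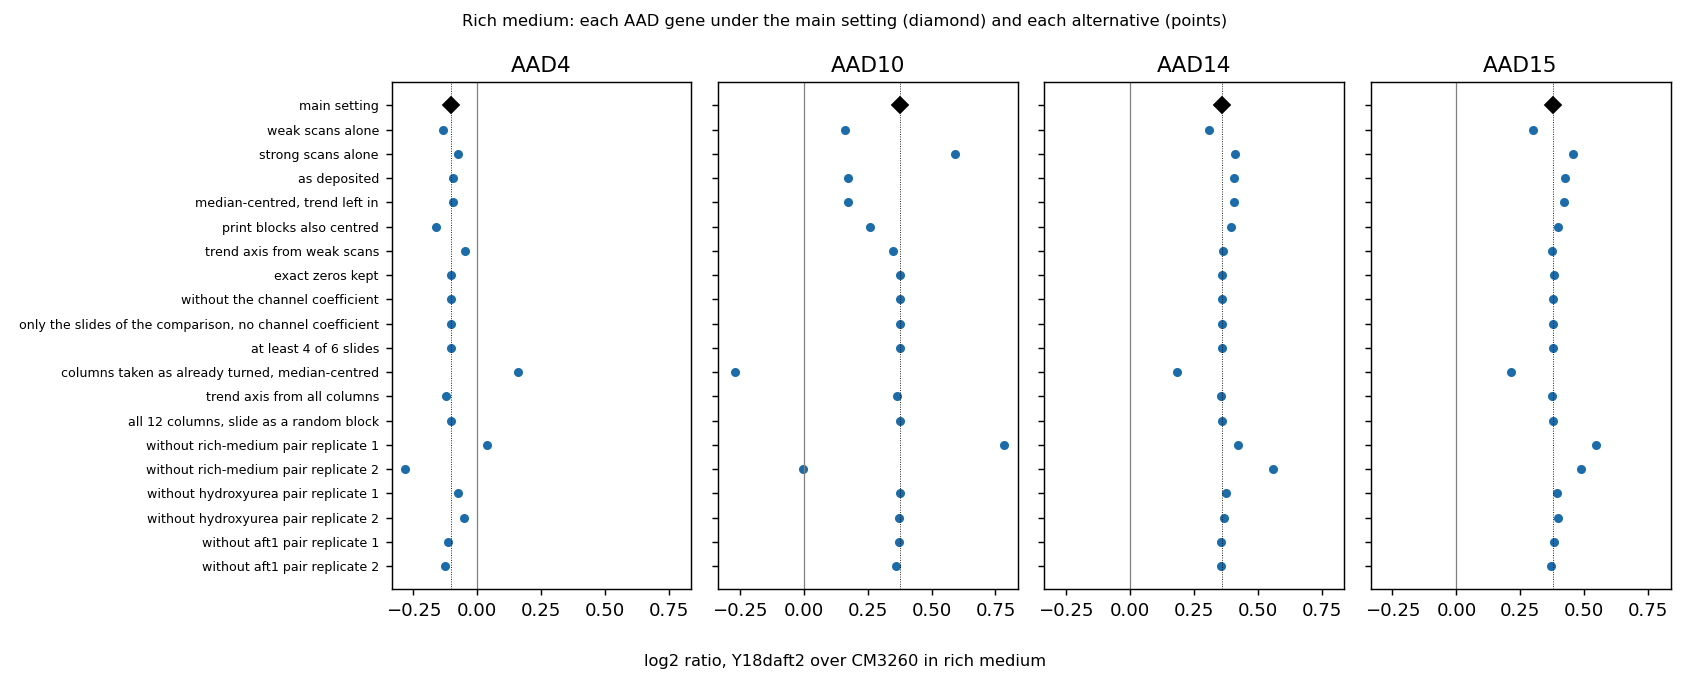
Log2 ratio of Y18daft2 over CM3260 in rich medium for each AAD gene (horizontal axis) under the main setting, drawn as a diamond, and under each of 19 alternatives, drawn as points. AAD14 and AAD15 lie above 0 throughout, from 0.19 to 0.56 and from 0.22 to 0.55, while AAD10 spans -0.27 to 0.78 and AAD4 spans -0.28 to 0.16. Alternatives without the channel term, with only the slides of the comparison, with at least 4 slides or with 12 columns return the main value.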

How the data were processed

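The authors' deposited table holds 1 log ratio of the channels per spot in 12 columns, read here as log2. Background subtraction, spot filters, normalisation, log base and direction are not given in the sources used here. Signal over background is unknown, and 0 columns were left unused. Exact zeros of strong scans (623) were set to missing, and none was an AAD spot. Columns were centred on their medians. A lowess curve (span 0.3, 3 iterations) against the mean of the other comparisons' centred columns was subtracted. Scans were averaged per slide, ratios turned to mutant over wild type, and spots averaged per gene. Of 6912 spots, 3344 have 1 gene symbol, 387 several and 3181 none. limma 3.58.1 in R 4.3.3 fitted the 6 slides with 3 comparisons and the channel of the mutant, with 2 residual degrees of freedom and Benjamini-Hochberg adjustment at 0.05. The fit was also run on simulated data, with changes larger than those of the AAD genes, so it does not test changes of their size.

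The members, lists and settings were chosen with earlier results of these data known. The rule for named genes took the 4 members, list genes past the threshold and each list's highest and lowest gene, the 3 genes most like the members, and AFT1, AFT2 and FIT3. The flanking genes, and LST4, TAG1 and VBA2, lie outside this rule and were chosen after their values were seen. Other lists read were alpha-cell genes, a-cell genes and the iron regulon. Alternatives covered scans, normalisation, trend axis, zeros, channel term, slides fitted, direction and leaving out each slide. No promoter, protein or probe sequence was used here.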

Additional observations from a re-analysis of the deposited data

Results flagged for a closer look

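AFT1 differed between the Y18daft2 pair and the aft1 pair in hydroxyurea, by 2.87 on the log2 scale (adjusted p = 0.0175, limma contrast of 2 slides against 2). It lay at -0.17 in the former and at -3.04 in the latter, where its sign set the direction of all ratios. This call was lost without replicate 1 or 2 of the Y18daft2 pair in hydroxyurea and without replicate 2 of the aft1 pair. The AFT1 call was also lost with strong scans, with columns taken as already turned, and with 12 columns and the slide as a random block. No AAD gene differed between comparisons by a contrast of this kind.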

How the results depend on the processing

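Of 380 values of AAD genes over 19 alternatives, 333 kept their sign and their side of the threshold, 46 changed sign and 1 passed the threshold. AAD14 and AAD15 kept their sign in rich medium under all 19, at 0.19 to 0.56 and 0.22 to 0.55, with a lowest adjusted p of 0.214 and 0.19 (limma). Some of the 19 could not change the sign. Without the channel term, with only the rich-medium slides, with at least 4 slides or with 12 columns, the values stayed at 0.359 and 0.379. The lowest value of each gene came from columns taken as already turned. The cause of the changes below was not tested.

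The setting that takes columns as already turned to 1 direction goes against the deposited values. Deposited AFT1 read 4.05 and 2.41 in the strong and weak scans of aft1 replicate 1, and -4.23 and -2.43 on replicate 2. Deposited FIT3 also changed sign with the channel swap in all 3 comparisons. With columns so taken, rich medium gave 0.158 for AAD4, -0.267 for AAD10, 0.615 for FIT3, 0.477 for ENB1 and 0.825 for AHP1. The Y18daft2 pair in hydroxyurea gave 0.407 for FIT3, 0.5 for ENB1 and 1 member past the threshold, AAD10 at -0.637 (adjusted p = 0.0371, limma). The aft1 pair gave -0.177 for AAD4, -0.055 for AAD14, 0.21 for FIT3 and 0.065 for ENB1. Hydroxyurea minus rich medium gave 0.172 for AAD14 and 0.1 for AAD15, and the Y18daft2 minus the aft1 pair gave 0.412 for AAD14. As deposited, the aft1 pair gave -0.235 for AAD4 and -0.172 for AAD14, AAD14 was -0.005 in the Y18daft2 pair in hydroxyurea, and their difference was 0.167. With the trend left in, the aft1 pair gave -0.007 for AAD4 and 0.103 for AAD10. With print blocks centred, the Y18daft2 pair in hydroxyurea gave 0.124 for AAD10, -0.005 for AAD14 and -0.026 for AAD15, the aft1 pair gave 0.047 for AAD10 and 0.036 for AAD15, and their differences were 0.077 and -0.062. Strong scans gave -0.018 for AAD14 in the Y18daft2 pair in hydroxyurea, and weak scans 0.021 for AAD10 in the aft1 pair. A trend axis from all columns, added after seeing the data, gave -0.006 for AAD14 in the Y18daft2 pair in hydroxyurea and -0.005 for AAD4 in the aft1 pair.

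Leaving out 1 slide in turn leaves a lone slide that is assumed to vary like the others. The fit also shifts that lone slide by a channel term estimated on the other comparisons. In rich medium leaving out slides gave -0.282 to 0.036 for AAD4 and -0.003 to 0.784 for AAD10. In the Y18daft2 pair in hydroxyurea it gave -0.139 to 0.282 for AAD4, -0.442 to 0.243 for AAD10, -0.283 to 0.316 for AAD14 and -0.152 to 0.285 for AAD15. In the aft1 pair it gave -0.382 to 0.388, -0.07 to 0.025, -0.137 to 0.366 and -0.346 to 0.196 for the same genes. For hydroxyurea minus rich medium it gave -0.087 to 0.359 for AAD4. For the Y18daft2 minus the aft1 pair it gave -0.351 to 0.42, -0.442 to 0.226, -0.367 to 0.234 and -0.166 to 0.389 for AAD4, AAD10, AAD14 and AAD15.

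The count of all genes past the threshold in rich medium, 8, became 14 with weak scans, 1 with strong scans, 2 as deposited, 5 with the trend left in, 0 with only its own slides, 0 when already turned, 84 with the axis from all columns and 4 with 12 columns and the slide as a random block. The 3 in the Y18daft2 pair in hydroxyurea became 1 with strong scans, 7 with only its own slides, 567 when already turned and 5 with the axis from all columns. The 6 in the aft1 pair became 0 with strong scans, 3 as deposited, 57 with only its own slides, 0 when already turned, 44 with the axis from all columns and 3 with 12 columns. The 0 for hydroxyurea minus rich medium became 1 with weak scans, 28 with the axis from all columns and 1 with 12 columns. The 1 for the Y18daft2 minus the aft1 pair became 3 with weak scans, 0 with strong scans, 0 when already turned, 12 with the axis from all columns and 0 with 12 columns. Leaving out slides gave 0 to 12 in rich medium, 0 to 5 in the Y18daft2 pair in hydroxyurea, 0 to 9 in the aft1 pair, 0 to 4 for hydroxyurea minus rich medium and 0 to 3 for the last difference.

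The replicate number marks the channel of the mutant, and the channel term is the replicate block here. Without that block the count was 15 in rich medium and 2 for the Y18daft2 minus the aft1 pair, and no AAD gene changed its call. Promoter motifs were not run, as no promoter sequence was used here.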

Other observations

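Genes of the iron regulon gave the only readings beyond 1 log2 unit in all 3 comparisons among the lists read. Of 7 listed, 3 were measured, and FIT3 and ENB1 were lower in each comparison (limma). The ENB1 call in rich medium (-1.13, adjusted p = 0.0478, limma) was kept under 8 of 19 alternatives and lost on leaving out any slide except replicate 2 of that comparison. In the Y18daft2 pair in hydroxyurea the calls of both genes were lost without either of its slides. In the aft1 pair both were lost without its replicate 2 and without either slide of the Y18daft2 pair in hydroxyurea, and ENB1 also without rich-medium replicate 1. The FIT3 call in rich medium was lost without replicate 1 of the Y18daft2 pair in hydroxyurea. With 12 columns and the slide as a random block, the FIT3 call was lost in all 3 comparisons. Strong scans alone lost it in both hydroxyurea pairs, and lost ENB1 in the aft1 pair. The FIT3 call was also lost in rich medium with only its own slides, and in the Y18daft2 pair in hydroxyurea without the channel term. FIT3, a cell wall mannoprotein that retains siderophore iron, read -2.56, -1.66 and -1.73 in rich medium, the Y18daft2 pair in hydroxyurea and the aft1 pair. FIT2, a related mannoprotein, read between 0.02 and 0.21 and did not pass. All 4 listed alpha-cell genes were measured and none passed, with medians of -0.55, -0.25 and 0.29 in the same order. Of 5 listed a-cell genes 3 were measured, and none passed, with medians of -0.19, -0.06 and -0.04.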
